A study of Homo sapiens with 12 samples.

Results

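The 9 genes described here belong to families of secreted protease inhibitors: A2M, SERPINA3, SERPINE2, SERPINF1, SERPING1, TIMP1, TIMP2, TIMP3 and CST3. Of these, SERPINF1 encodes a serpin that does not itself inhibit proteases. They were selected by name, as 9 of the 59653 gene rows in the count table, and 8 of them had enough counts to be among the 24671 genes tested. The selection was made with earlier results of the siZCC against siNC contrast in view, so the values of the 9 genes in that contrast are a description and carry no test of their own. The libraries were made from human neurons grown from iPSCs (reprogrammed, pluripotent stem cells) of IMR-90, a line that began as lung fibroblasts. One group of 6 libraries received a negative control small interfering RNA (siNC). The other group of 6 received an siRNA against ZCCHC17 (siZCC), a gene for a zinc knuckle protein. All 12 libraries share 1 cell line, and the labels do not say whether replicates were separate cultures. The p-values below therefore measure the spread between these libraries, which may be technical.

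Protease inhibitors outside the cell set how far secreted proteases act on matrix, complement and growth factors. A2M (alpha-2-macroglobulin) traps proteases of all classes in a cage that the receptor LRP1 then clears. Serpins are suicide substrates of mostly serine proteases, TIMPs block the active site of matrix metalloproteinases and some related ADAM enzymes, and cystatin C (CST3) inhibits cysteine cathepsins. In brain, astrocytes, pericytes and choroid plexus are known sources of several of these inhibitors, and SERPINA3 is known as an acute phase gene in human.

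Library depth was 90755953 to 120023356 counts in siNC and 76115083 to 105389055 in siZCC. ZCCHC17, the targeted gene, was at 54.0 to 61.0 CPM (counts-per-million, scaled by TMM factors) in siNC and at 9.37 to 10.6 CPM in siZCC, so every library matched its label. Over all genes, the quasi-likelihood test of edgeR called 22.2% of tested genes at a Benjamini-Hochberg adjusted p under 0.05. Of the tested genes 11.4% were called higher and 10.8% lower in siZCC, and 9.74% had groups of libraries that did not overlap. The neuronal genes MAP2 (1027 CPM) and DCX (649 CPM in siNC) were abundant, and so were the progenitor genes NES (1118 CPM) and SOX2 (621 CPM) and the astroglial gene GFAP (616 CPM). Genes of progenitors and astroglia were thus abundant beside those of neurons, and the mature neuron gene RBFOX3 had means of 1.27 CPM in siNC and 1.16 in siZCC. In such bulk libraries, fewer cells of a type and less RNA per cell cannot be told apart.

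The start regions of 3 of the genes are shown. TIMP1 and TIMP3 both start inside a synapsin gene on the opposite strand, and SERPINA3 had almost no counts. Whether the start regions bear on the counts was not tested. Each window runs from 250 bases before to 50 bases after the RefSeq start, on the sense strand of the gene, build GRCh38.p14. The TIMP1 window is chrX:47582186-47582485 (plus strand), the TIMP3 window chr22:32801455-32801754 (plus strand) and the SERPINA3 window chr14:94612141-94612440 (plus strand). Capitals mark the GC box GGGCGG and the box CCAAT, on either strand.
TIMP1: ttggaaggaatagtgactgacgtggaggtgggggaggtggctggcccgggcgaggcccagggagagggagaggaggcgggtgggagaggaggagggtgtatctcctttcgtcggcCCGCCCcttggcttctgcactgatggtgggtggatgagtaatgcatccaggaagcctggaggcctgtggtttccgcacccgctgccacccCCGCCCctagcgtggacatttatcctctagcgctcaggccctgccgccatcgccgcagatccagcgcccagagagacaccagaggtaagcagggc
TIMP3: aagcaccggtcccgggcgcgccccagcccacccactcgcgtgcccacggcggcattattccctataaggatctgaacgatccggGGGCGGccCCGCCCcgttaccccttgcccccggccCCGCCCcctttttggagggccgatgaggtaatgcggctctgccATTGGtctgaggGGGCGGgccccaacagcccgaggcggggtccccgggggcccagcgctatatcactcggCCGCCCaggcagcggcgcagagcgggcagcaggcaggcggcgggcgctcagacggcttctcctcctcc
SERPINA3: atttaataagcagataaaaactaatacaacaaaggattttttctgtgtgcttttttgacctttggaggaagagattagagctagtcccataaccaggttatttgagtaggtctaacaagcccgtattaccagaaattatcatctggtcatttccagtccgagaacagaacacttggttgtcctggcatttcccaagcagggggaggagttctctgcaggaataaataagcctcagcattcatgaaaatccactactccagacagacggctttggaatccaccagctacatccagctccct
The TIMP3 window held 5 GC boxes and 1 CCAAT box, the TIMP1 window 2 GC boxes, and the SERPINA3 window none of either. Over 35116 RefSeq windows of the same length, 45% held GGGCGG and 34.6% held CCAAT. G and C made up 72.7% of the TIMP3 window, 65% of the TIMP1 window and 42.3% of the SERPINA3 window, against a median of 58.7%. CG dinucleotides numbered 31, 16 and 3 in that order, against a median of 14. The letters TTCNNNGAA (bound by STAT factors, in 7.66% of windows), the core of the interferon-stimulated response element (3.57%), TGACTCA (AP-1, 4.95%) and TATAAA (11.5%) had no match on either strand in these 3 windows, nor had CACGTG (7.26%). RefSeq start windows were matched for 5 of the 9 symbols: the 3 shown, CST3 and SERPINE2. Windows of A2M, SERPINF1, SERPING1 and TIMP2 were not used here. Matches are a description of letters and show no binding.

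A2M was lower in siZCC, at 48.8% of its siNC level. In siNC its CPM was 1097, 747, 998, 1153, 729 and 1243 in replicates 1 to 6. In siZCC it was 452, 462, 570, 427, 400 and 603 CPM in the same order. No siZCC library reached the lowest siNC library. Within siNC, replicates 2 and 5 lay apart below the other 4, and within siZCC, replicates 3 and 6 lay above the others. The log2 fold change was -1.03 (SE 0.128, n = 6 and 6), and the gene was called lower. Among the 2492 tested genes with at least 100 CPM, A2M had the largest absolute log2 fold change, ahead of the endocytic receptor gene LRP2 (0.81). It was also among the most variable of those genes within groups, with an SD of 0.28 on the log2 scale (percentile 99.9) against a median of 0.06.

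On GENCODE v29, exons of A2M overlap those of 1 other gene. The annotation behind the deposited counts is not given in the sources used here. A2M spans chr12:9067664-9116229 on the minus strand (GRCh38, GENCODE v29), and the antisense gene A2M-AS1 shares 561 exon bases with it. A2M-AS1 had 97 to 164 counts per library and a log2 fold change of 0.10 (SE 0.11, edgeR adjusted p = 0.55). The pseudogene A2MP1 had 5 to 13 counts per siNC library and 2 to 5 per siZCC library and was not tested. A2M itself had 32012 or more counts in every library.

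**Figure D1:**
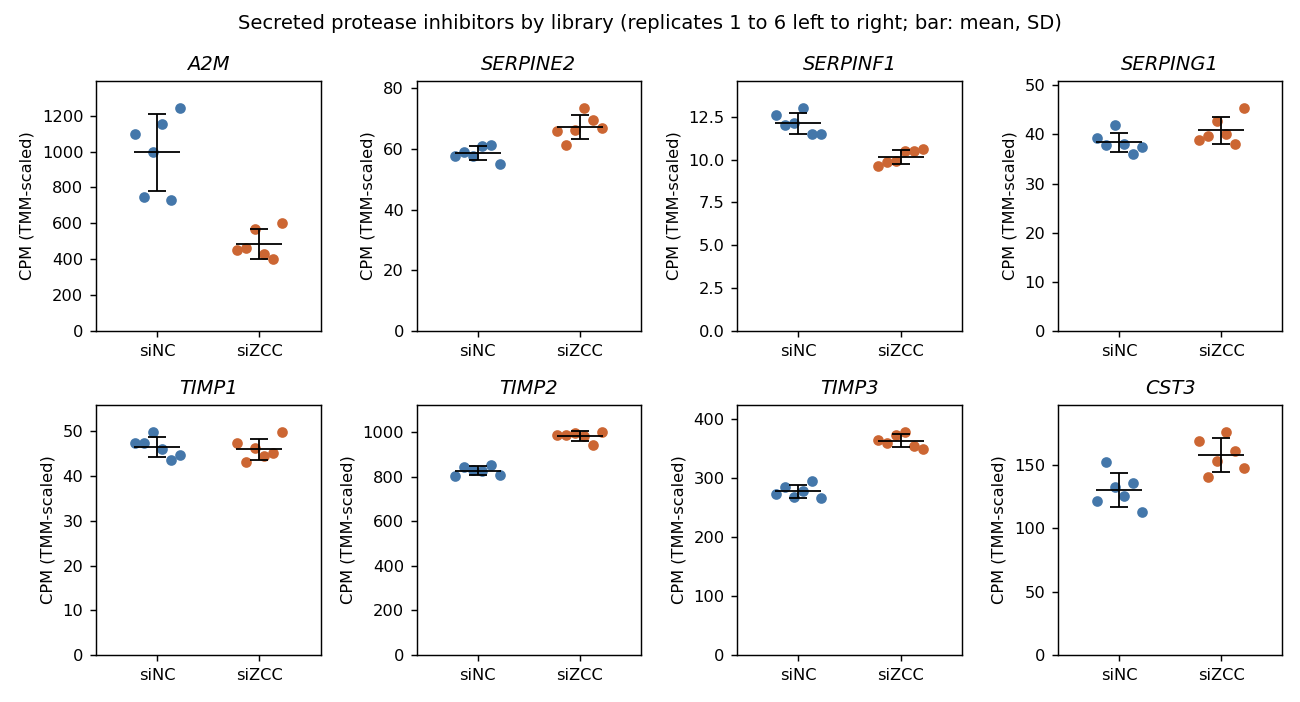
Each panel plots TMM-scaled CPM (vertical axis, from 0) of 1 inhibitor gene in the 6 siNC and 6 siZCC libraries; points are libraries in replicate order, bars the mean and SD. A2M and SERPINF1 were lower in every siZCC library, TIMP2 and TIMP3 were higher in every one, and the groups overlapped for the other 4 genes.

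The 4 serpins did not move in 1 direction. SERPINE2 (protease nexin-1, an inhibitor of thrombin and plasminogen activators) was higher in siZCC. Its CPM ran from 54.9 through a median of 58.3 to 61.3 in siNC and from 61.3 through 66.5 to 73.5 in siZCC. The highest siNC library (replicate 5) and the lowest siZCC library (replicate 2) overlapped by less than 1 CPM. The log2 fold change was 0.20 (SE 0.04), called higher. In the 3 and 3 libraries with low counts of the interleukin gene IL1B the value was 0.11 (SE 0.05) and not called.

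SERPINF1 (pigment epithelium-derived factor, which acts on neurons and vessels) was lower in siZCC. Its lowest, median and highest siNC libraries had 11.5, 12.1 and 13.01 CPM, and those of siZCC had 9.62, 10.2 and 10.6 CPM. The groups did not overlap. The log2 fold change was -0.25 (SE 0.04), called lower. In the 3 and 3 libraries with high IL1B counts it was -0.22 (SE 0.06) and not called.

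SERPING1 (C1 inhibitor, which blocks the complement proteases C1r and C1s) had 36.0, 38.0 and 41.9 CPM in its lowest, median and highest siNC library and 38.1, 39.9 and 45.4 CPM in siZCC. The groups overlapped through most of their range, and only siZCC replicates 3 and 6 lay above every siNC library. The ratio of siZCC to siNC was 1.06, with a 95% interval of 0.997 to 1.14, and the gene was not called.

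SERPINA3 (alpha-1-antichymotrypsin, an inhibitor of cathepsin G and chymase) was listed at 0 counts in 11 libraries and at 1 count in siZCC replicate 4. A count of 0 allows up to 3 counts, which is 0.025 to 0.0328 CPM in the siNC libraries. That limit covers counting error only. All 1589 bases of transcript SERPINA3-201 and all 1581 bases of SERPINA3-202 also lie in exons of AL049839.2, a gene on the same strand that contains SERPINA3 (chr14:94612377-94624055). AL049839.2 had 0 counts in all 12 libraries. How reads in exons of several genes were counted is not given in the sources used here, so the 0 cannot be read as absence of the transcript.

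The TIMPs split into TIMP2 and TIMP3, which were higher in siZCC, and TIMP1, which was not called. TIMP3, the member that binds to matrix and also inhibits ADAM17, rose from 267, 275 and 296 CPM (lowest, median and highest siNC library) to 350, 362 and 379 CPM. No siNC library reached the lowest siZCC library. The log2 fold change was 0.39 (SE 0.03), called higher, and was the largest increase among the 9 genes.

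TIMP2, which inhibits MMP2 and also takes part in its activation, had 802, 828 and 851 CPM in its lowest, median and highest siNC library and 939, 987 and 1002 CPM in siZCC. The groups did not overlap, although siZCC replicate 5 lay below the other 5 siZCC libraries. The log2 fold change was 0.25 (SE 0.03), called higher. TIMP2 was also steady within groups: its SD of 0.03 on the log2 scale was at percentile 10.3 among the genes at 100 CPM or more. On GENCODE v29, TIMP2 (chr17:78852977-78925387, minus strand) shares 198 exon bases with CEP295NL on the same strand, which had 176 to 342 counts per library. It shares 367 exon bases with the antisense gene AC022966.1, which had 13 to 215 counts, and TIMP2 itself had 73659 or more.

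TIMP1, the soluble and cytokine-inducible member, had 43.7, 46.8 and 49.99 CPM in its lowest, median and highest siNC library and 43.1, 45.7 and 49.8 CPM in siZCC. The groups covered nearly the same range. The ratio of siZCC to siNC was 0.988 with a 95% interval of 0.934 to 1.05. The ratio of TIMP3 to TIMP1 counts within a library, which does not depend on library scaling, was 5.37 to 6.77 in siNC and 7.03 to 8.52 in siZCC. TIMP4, the fourth family member and not in the set of 9, was higher as well, at 25.1 ± 1.91 CPM in siNC and 30.5 ± 1.72 in siZCC (SD, n = 6 each, log2 fold change 0.28, edgeR adjusted p = 7.05e-04).

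TIMP1 lies at chrX:47582313-47586789 inside SYN1 and TIMP3 at chr22:32801701-32863043 inside SYN3, both on the strand opposite to the synapsin gene, and neither shares an exon base with it. The host genes encode synaptic vesicle proteins. SYN1 had 54.2 ± 5.07 CPM in siNC and 51.7 ± 5.53 in siZCC (log2 fold change -0.07, edgeR adjusted p = 0.53). SYN3 had 20.5 and 21.5 CPM in the 2 group means (log2 fold change 0.07, edgeR adjusted p = 0.63). Neither host was called.

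CST3 (cystatin C) was higher in siZCC. Its lowest, median and highest siNC libraries had 113, 129 and 152 CPM, and those of siZCC had 141, 157 and 177 CPM. The groups overlapped: the highest siNC library, replicate 2, lay above 2 siZCC libraries. The log2 fold change was 0.28 (SE 0.06), called higher. Its within-group SD of 0.14 (log2) was at percentile 96.2 among genes at 100 CPM or more.

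**Figure D2:**
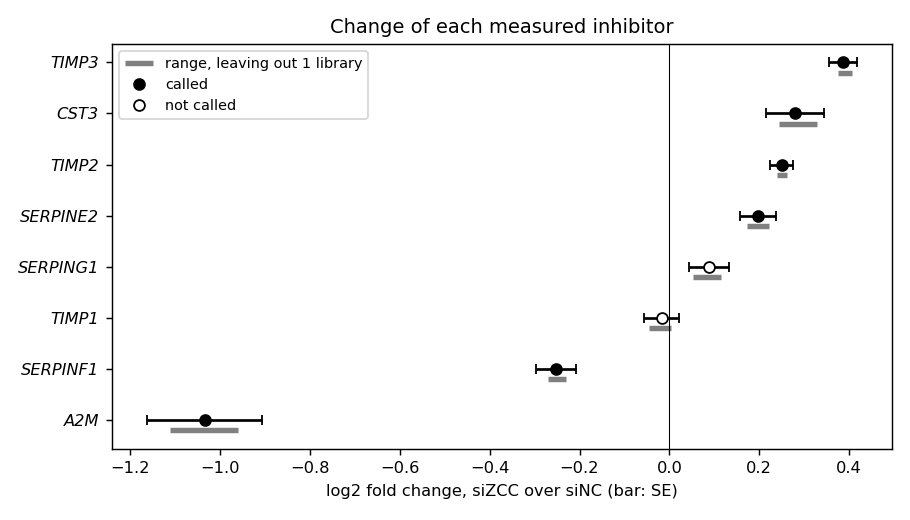
The horizontal axis is the log2 fold change of siZCC over siNC for the 8 tested genes; filled points were called, open points were not, black bars are the SE and grey bars the range when each of the 12 libraries is left out in turn. A2M lies at -1.03 and TIMP3 at 0.39, and TIMP1 is the gene whose grey bar crosses 0.

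Of the 8 tested genes 4 were called higher and 2 lower, or 75%, beside 22.2% of all tested genes. Groups did not overlap for 4 of the 9, beside 9.74% of tested genes. Since the genes were selected on this contrast, nothing is read from these shares. Their median log2 fold change was 0.14, against -0.0016 over all tested genes. Without A2M, the summed CPM of the other 8 genes was 1336 to 1436 in siNC and 1618 to 1708 in siZCC. The largest parts of that sum were TIMP2 (means of 826.5 CPM in siNC and 982.7 in siZCC) and TIMP3 (277.8 and 363.2). With A2M, the sum was 2164 to 2579 in siNC and 2018 to 2274 in siZCC, and the groups overlapped.

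A2M therefore took a smaller share of the set's counts: 33.7% to 48.2% in siNC and 19.8% to 26.5% in siZCC. The ratio of A2M to TIMP2 counts was 0.857 to 1.54 in siNC and 0.425 to 0.602 in siZCC. A2M had more counts than TIMP2 in 4 of 6 siNC libraries and in 0 of 6 siZCC libraries. The ratio of A2M to CST3 counts was 4.91 to 10.97 in siNC and 2.42 to 4.09 in siZCC.

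Levels between genes were compared per length, as CPM per kilobase of exon. In siNC, A2M (156 ± 33.5, SD, n = 6) and TIMP2 (147 ± 3.36) led and overlapped in range. TIMP3 followed at 60.3, then CST3 (35.2 ± 3.65) and TIMP1 (30.2 ± 1.45), whose ranges overlapped. SERPING1 (10.7), SERPINE2 (6.59) and SERPINF1 (3.95) came next without overlap, and SERPINA3 was at 0. In siZCC, TIMP2 led at 175 CPM per kilobase, and TIMP3 (78.9 ± 2.41) and A2M (76.1 ± 12.8) overlapped behind it. With the longest transcript as length, TIMP2 (226) stood above A2M (205) and TIMP1 (42.5) above CST3 (39.6) in siNC, so the order within each of those pairs depends on the length used.

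**Figure D3:**
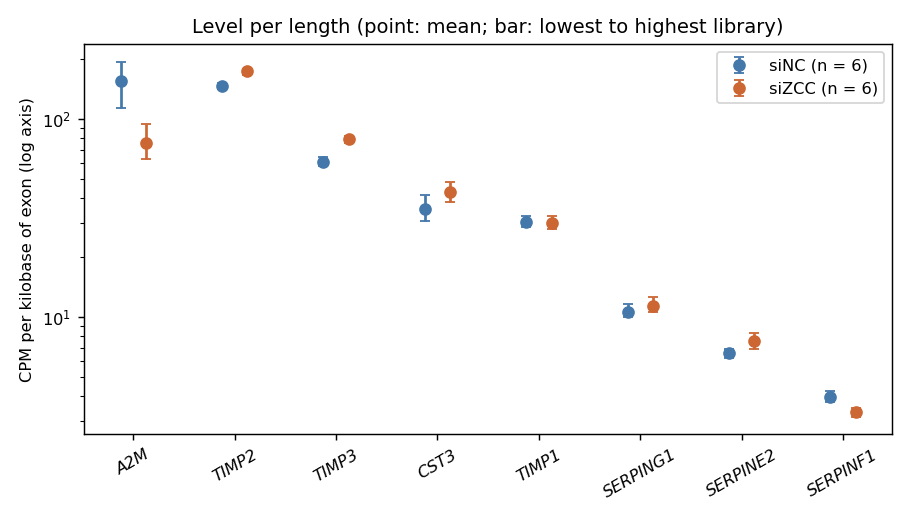
The vertical log axis is CPM per kilobase of exon for 8 genes, with the mean of 6 libraries as a point and the lowest to highest library as a bar, siNC and siZCC side by side. The mean of A2M moves from 156 to 76.1. In siNC the range of A2M overlaps that of TIMP2, and in siZCC it lies below that of TIMP2. The order of the 4 genes at the right stays as it was.

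With group means removed, Pearson's r of log2 CPM over the 12 libraries was positive in 17 of 28 pairs of genes. The highest value was for SERPING1 and TIMP1 (0.77) and the lowest for A2M and CST3 (-0.75). Without the 2 libraries farthest from the median, the first fell to 0.42 and the second was -0.67. When libraries were permuted within groups, 0 of the 28 pairs had a Benjamini-Hochberg adjusted p under 0.05 for r. A2M and TIMP2 had r of -0.86 over the 6 siNC libraries and 0.78 over the 6 siZCC libraries. These values are descriptions over few libraries that share their scaling, and the A2M libraries fall into separate levels as given above.

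The genes most like A2M, by the same measure over 12624 genes averaging 5 CPM or more, were ANXA1 (0.99), EFEMP1 (0.99) and CD44 (0.98). ANXA1 encodes annexin A1, EFEMP1 the matrix protein fibulin-3 and CD44 a hyaluronan receptor. EFEMP1 had 97.5 ± 24.4 CPM in siNC and 48.5 ± 9.04 in siZCC (SD, n = 6 each), a log2 fold change of -1.004 (SE 0.15, edgeR adjusted p = 1.47e-04). ANXA1 fell from 97.6 ± 14.5 to 68.2 ± 7.92 CPM (log2 fold change -0.52, edgeR adjusted p = 6.09e-04). CD44 fell from 183 ± 31.2 to 124 ± 18.5 CPM (log2 fold change -0.56, edgeR adjusted p = 0.00118). In all 3, siNC replicates 2 and 5 were the lowest siNC libraries and siZCC replicates 3 and 6 the highest siZCC libraries, as for A2M. The 3 genes were picked for their likeness to A2M within groups, so this shared order follows from the selection.

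**Figure D4:**
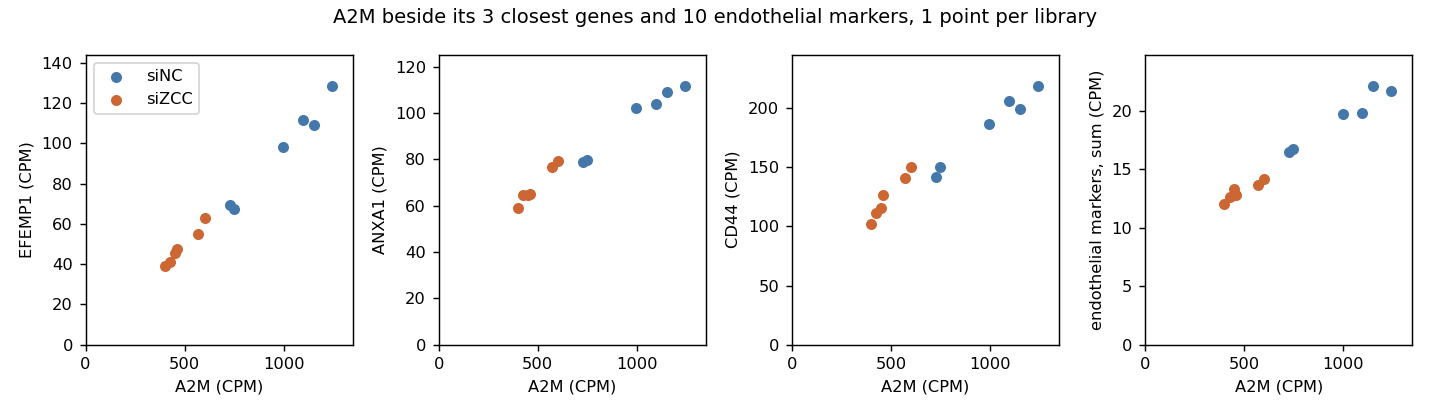
Each panel plots 1 point per library, with A2M CPM on the horizontal axis and the CPM of EFEMP1, ANXA1, CD44 or the sum of 10 endothelial marker genes on the vertical axis, from 0. The siNC libraries at 729 and 747 CPM of A2M sit below the other 4 in every panel. EFEMP1, ANXA1 and CD44 were picked for their correlation with A2M.

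The other genes had different partners. TIMP3 was most like SOX2 (r = 0.95), NEURL1B (0.93) and ADAMTS6 (0.92), and all 3 were called higher in siZCC. CST3 was most like EEF2 (0.97), CRY2 (0.96) and UBQLN4 (0.96), also called higher. SERPINE2 was most like TSPAN18 (0.94), and SERPINF1 most like SLC9A5 (0.93). TIMP1 was most like PKM (0.95) and TIMP2 most like FADS1 (0.87), and neither of these partners was called. Among their next partners, BAX of TIMP1 (log2 fold change 0.12) and SRPRA of TIMP2 (0.11) were called higher, and SLC35B1 and CDH1 were not called. For SERPINF1, itself lower, the partner DPH1 was called higher (0.19), and SLC9A5 and EPOR were not called.

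With group means removed, sums of cell type markers had r to A2M from -0.80 (neuron) to 0.95 (endothelial). The summed CPM of 10 endothelial markers was 16.5 to 22.1 in siNC and 12.1 to 14.2 in siZCC, with r of 0.95 to A2M within groups. Of 7 tested, 0 were called higher and 3 lower, beside 11.4% and 10.8% of all tested genes. The 3 were TEK (9.46 and 5.63 CPM), CLDN5 (4.35 and 2.79) and ESAM (3.60 and 2.76), with edgeR adjusted p of 2.09e-04, 7.25e-05 and 8.45e-04. VWF (log2 fold change 0.37), PECAM1 (0.04), KDR (-0.15) and TIE1 (-0.21) were not called. The defining genes PECAM1, CDH5 and VWF were at or under 0.43 CPM in every library, and 7 of the 10 markers had a mean under 1 CPM. None of the 10 was at 0 in all libraries.

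The 10 choroid plexus markers summed to 31.96 to 36.1 CPM in siNC and 28.6 to 31.2 in siZCC, with r of 0.73 to A2M over both groups, 0.97 within siNC and 0.21 within siZCC. Of 7 tested, 0 were called higher and 3 lower, beside 11.4% and 10.8% of all tested genes. The 3 were KCNJ13 (log2 fold change -0.98), FOLR1 (-0.41) and OTX2 (-0.31). PRLR (0.31), KCNE2 (0.14), SLC4A5 (0.13) and AQP1 (-0.01) were not called, and 6 of the 10 markers averaged under 1 CPM. TTR, the gene that defines choroid plexus, had at most 6 counts in any library. The sum of the 10 pericyte markers overlapped between groups (745 to 847 and 758 to 870 CPM, r = 0.76). Of the 10, 3 were called higher and 3 lower, beside 11.4% and 10.8% of all tested genes. PDGFRB (83.5 and 112 CPM), MCAM (log2 fold change 0.22) and NOTCH3 (0.14) were higher. ACTA2 (214 and 144 CPM), RGS5 (-0.31) and ABCC9 (-0.20) were lower. The 10 fibroblast markers summed to 206 to 449 and 156 to 275 CPM (r = 0.51), with COL1A1 and FBLN1 the most abundant. Of these 10, 5 were called lower and 0 higher, beside 10.8% and 11.4% of all tested genes. The 12 neuron markers summed to 3406 to 3824 and 3137 to 3524 CPM (r = -0.80), with 1 called higher and 5 lower. The sums of the 10 astrocyte markers (r = 0.66, 3 called higher and 1 lower) and the 9 progenitor markers (r = 0.38, 4 higher and 1 lower) overlapped between groups. Beside the neuron, astrocyte and progenitor counts, the shares over all tested genes are again 11.4% called higher and 10.8% called lower. Microglia markers summed to at most 3.15 CPM and hepatocyte markers to at most 2.50 CPM in any library. The part of these cell types in the A2M value was not tested.

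The wider family of secreted inhibitors was looked at through 58 further genes, of which 28 were tested. Of these 3 were called higher and 6 lower (32.1%, beside 22.2% of all tested genes), with a median log2 fold change of -0.02. Higher genes were TFPI, the tissue factor pathway inhibitor (17.0 ± 0.813 to 21.5 ± 0.734 CPM, log2 fold change 0.33, edgeR adjusted p = 1.45e-05), TIMP4 and the matrix proteoglycan gene SPOCK2 (0.25). Its paralogue TFPI2 was lower (12.8 ± 3.01 to 7.60 ± 1.48 CPM, -0.75, edgeR adjusted p = 0.00149). SPOCK3 (-0.26) and the neuronal serpin gene SERPINI1, neuroserpin (-0.21), were also lower. The most abundant of the list, the collagen chaperone SERPINH1 (291 and 272 CPM) and SPOCK1 (115 and 124 CPM), were not called. Genes at 0 in all libraries numbered 8, among them CST1, CST2 and CST4. Of 15 intracellular inhibitors 6 were tested, 1 higher (the cystatin gene CSTB, 0.11) and 3 lower, SERPINB6 among them (-0.15). CAST, the calpain inhibitor calpastatin, was not called. CSTB was not called without a filter or with the replicate block, and its call held in 8 of 12 fits without 1 library. Within the 3 and 3 libraries of high IL1B counts, where 8.2% of all tested genes were called, 5 of the other secreted and 1 of the intracellular inhibitors were called. Within those of low IL1B counts, where 6.45% of all tested genes were called, 0 intracellular inhibitors were.

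Among 34 metalloproteinase genes, a class that includes targets of TIMPs and A2M, 29 were tested. Of these 7 were called higher and 5 lower (41.4%, beside 22.2% of all tested genes), with a median log2 fold change of -0.04. MMP2, gelatinase A, had 38.8 ± 6.04 CPM in siNC and 25.99 ± 2.41 in siZCC (log2 fold change -0.57, edgeR adjusted p = 2.29e-04), and its groups did not overlap. ADAMTS12 (-0.32) and ADAM12 (-0.54) were lower. ADAMTS6 (0.37), the procollagen-processing gene ADAMTS3 (0.31) and ADAM15 (0.22) were higher. The most abundant, ADAM9 (353 and 334 CPM) and MMP15 (222 and 224 CPM), were not called. Within the high and the low IL1B libraries 7 metalloproteinase genes each were called, beside 8.2% and 6.45% of all tested genes.

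Of 25 serine protease genes 17 were tested, 2 called higher and 2 lower (23.5%, close to the 22.2% of all tested genes). MASP1, a protease of the lectin complement pathway, rose from 33.5 ± 1.15 to 47.8 ± 3.87 CPM (log2 fold change 0.51). PRSS12, neurotrypsin, was higher (0.27), and C1R, whose product SERPING1 inhibits, was lower (16.5 and 13.6 CPM, -0.28, edgeR adjusted p = 0.0151). HTRA1 (129 and 131 CPM) and PRSS23 were not called. Of 12 cysteine protease genes, which include the targets of CST3, 11 were tested. Of these 3 were called higher and 4 lower (63.6%, beside 22.2% of all tested genes). CTSL (0.15), CTSF (0.19) and CTSB (0.08, edgeR adjusted p = 0.0487) were higher, and CTSH (-0.69), CTSC (-0.33) and CTSO (-0.25) were lower. The asparaginyl protease gene LGMN was not called. The CTSB call held in 3 of 8 other settings that used all libraries and in 3 of 12 fits without 1 library. Within the low IL1B libraries 1 serine and 0 cysteine protease genes were called, beside 6.45% of all tested genes.

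Receptors and binding partners of the inhibitors numbered 15, all tested. Of these 7 were called higher and 2 lower (60%, beside 22.2% of all tested genes), with a median log2 fold change of 0.12. LRP2 (megalin) had 143 to 234 CPM in siNC and 308 to 338 CPM in siZCC, a log2 fold change of 0.81 (SE 0.08). LRP1, the receptor that clears A2M with its bound protease, rose from 860 ± 56.5 to 972 ± 46.7 CPM (0.18, edgeR adjusted p = 0.00675), and its groups did not overlap. LRP1B (0.68) and the receptor chaperone LRPAP1 (0.13) were higher, as was RPSA (0.11), whose product binds the SERPINF1 protein. ITGB1, an integrin subunit gene, was lower (283 ± 22.1 to 245 ± 19.8 CPM, log2 fold change -0.21). The RPSA call held in 5 of 8 other settings that used all libraries and in 4 of 12 fits without 1 library. Receptor genes called within the high and the low IL1B libraries numbered 5 and 4, beside 8.2% and 6.45% of all tested genes.

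A2M and SERPINA3 are known targets of signalling by the interleukin 6 family, so 33 cytokine regulators were listed. Of 31 tested, 6 were called higher and 7 lower (41.9%, beside 22.2% of all tested genes), with a median log2 fold change of -0.01. OSMR, the oncostatin M receptor, fell from 20.4 ± 4.12 to 12.2 ± 1.82 CPM (-0.74, edgeR adjusted p = 3.53e-04). SOCS3, a feedback inhibitor of the pathway, fell from 57.0 ± 7.003 to 40.0 ± 6.32 CPM (-0.51, edgeR adjusted p = 8.25e-04), and STAT3 was lower by a small amount (-0.10, edgeR adjusted p = 0.0241). CNTFR (0.40), a receptor subunit for ciliary neurotrophic factor, and NFKB2 (0.21) were higher. The STAT3 call held in 6 of 12 fits without 1 library. Within the high and the low IL1B libraries 7 and 3 genes of the list were called, beside 8.2% and 6.45% of all tested genes. Of 20 acute phase and reactive glia genes 8 were tested. Of these 0 were called higher and 3 lower (37.5%, beside 22.2% of all tested genes), S100A10 (-0.54) and CD44 among them. Within the low IL1B libraries 1 was called, beside 6.45% of all tested genes. VIM (3550 and 3595 CPM) and GFAP (616 and 654 CPM), the most abundant, were not called.

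**Figure D5:**
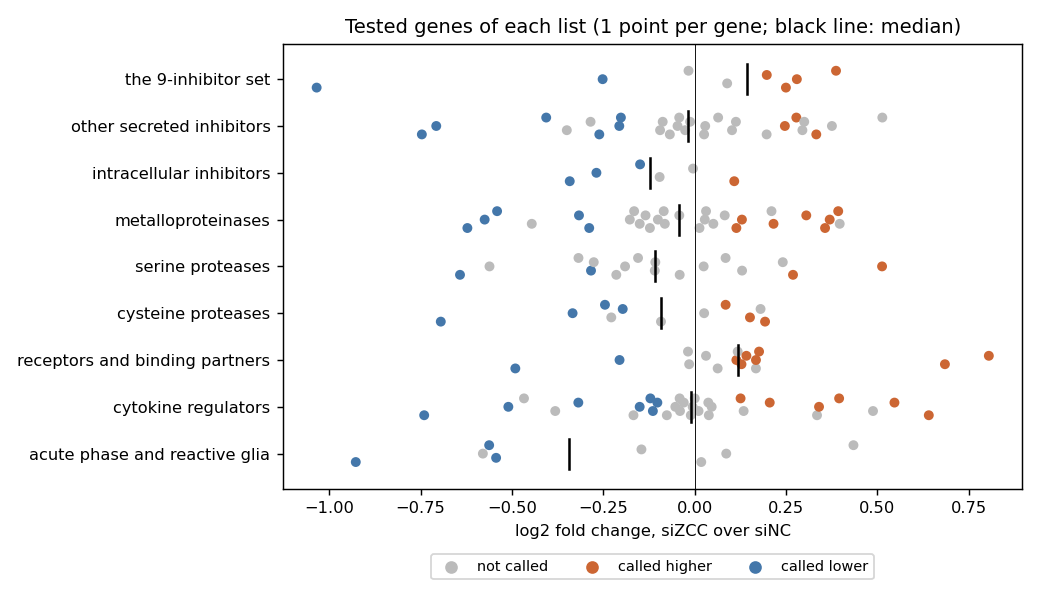
Each row is a gene list and each point a tested gene at its log2 fold change of siZCC over siNC (horizontal axis); orange points were called higher, blue lower, grey not called, and the black line is the median. A2M is the point at -1.03 in the top row, and the receptor list has its median at 0.12 with LRP2 at 0.81.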

How the data were processed

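Total RNA of 12 libraries (6 siNC, 6 siZCC) was lysed in Qiazol and prepared with a directional NEBNext kit, per the labels. The authors deposited whole-number counts per gene symbol, unnormalized. The submitters' processing notes name bcl2fastq 2.17, STAR 2.7.6a, featureCounts 2.0.1 and GRCh38. Annotation release and strandedness of the counting are not given in the sources used here, so reads of overlapping or antisense genes may be assigned in ways not known. Groups came from the sample titles, where NPC also appears without explanation.

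Counts were tested in R 4.3.3 with edgeR 4.0.16: filterByExpr, TMM scaling, the quasi-likelihood test (glmQLFit, glmQLFTest) on 2 groups, and Benjamini-Hochberg adjustment over 24671 genes, with a threshold of 0.05. A standard error is the log2 fold change divided by the square root of F, and log2 CPM used a prior count of 2. Intervals of ratios use the test's degrees of freedom. Scripts were tested on simulated counts. Positions and exon lengths came from GENCODE v29 and start windows from RefSeq. The 9 genes and the gene lists were chosen with earlier results of these data known. In each list the text names up to 3 genes with the smallest p in each direction among called genes of at least 5 CPM, and the 2 most abundant; 2 genes that this rule names are not reported here. For each of the 9 genes it names partners with the highest correlation. Marker genes beyond the 2 most abundant of a list were named after their values were seen. Alternatives were DESeq2 size factors, upper quartile scaling, no filter or a mean count of at least 50, DESeq2 1.42.0, limma 3.58.1 voom, the replicate number as a block, and leaving out each library. The IL1B side of a library (2 to 12 counts of IL1B, or 449 to 1512) was used as a term, and the contrast was also fitted within each side.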

Additional observations from a re-analysis of the deposited data

Results flagged for a closer look

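The highest and lowest library was looked at in 118 groups of 6 values, and 2 of them held a library far from the other 5. Chance gives about 1 in 20, or 5.9. The siNC replicate 4 library had 90755953 counts, against 109973707 to 120023356 in the other 5. Leaving it out gave 4689 called genes in place of 5481, within the 4484 to 5626 found when each library was left out in turn. TIMP2 in siZCC replicate 5 was at 9.88 log2 CPM, below the 9.94 to 9.97 of the other 5 siZCC libraries. It still lay above every siNC library.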

How the results depend on the processing

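A2M, TIMP2, TIMP3 and CST3 kept their direction and their call under all 10 other settings and in all 12 fits that left out 1 library. A2M ran from -1.23 to -0.87 over the settings and from -1.11 to -0.96 over the left-out libraries. The replicate block gave 4902 called genes in place of 5481 and changed no call among the 9 genes. Over all tested genes, same-numbered libraries did not deviate together (r of -0.08 to 0.02). The labels do not say whether the numbers pair libraries, and these values do not settle it. For A2M the SE was 0.078 with the block and 0.128 without it. Within the high IL1B libraries (3 and 3) 2043 genes were called, or 8.2% of those tested. There SERPINF1 was at -0.22 and no longer called, and SERPING1 was at -0.0012. Called genes numbered 5 of the other secreted inhibitors, 1 of the intracellular ones, 7 metalloproteinases, 5 receptors and 7 cytokine regulators. Within the low IL1B libraries 1602 genes were called, or 6.45% of those tested. There SERPINE2 was at 0.11 and no longer called, and TIMP1 was at 0.0202. Called genes numbered 0 intracellular inhibitors, 7 metalloproteinases, 1 serine protease, 0 cysteine proteases, 4 receptors, 3 cytokine regulators and 1 acute phase gene. Fewer libraries entered each of these fits. TIMP1 ran from -0.0449 to 0.0045 when 1 library was left out and changed sign without siNC replicate 3 or siZCC replicate 2 (0.0018). Upper quartile scaling gave 46.4% of called genes higher in place of 51.4%. Each of the 8 tested genes had at least 786 counts in every library, and SERPINA3 had too few counts to test.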
